A study of Mus musculus with 12 samples.

Results

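A group of chemokine genes was followed in the tumor cells, chosen by symbol from the deposited tables, 8 genes of 14851 listed. They are Cx3cl1 (gene ID 20312), Cxcl1 (14825), Cxcl10 (15945), Cxcl12 (20315), Cxcl16 (66102), Ccl2 (20296), Ccl5 (20304) and Ccl7 (20306). The cells were of the mouse line 562, which became immortal on its own in culture and was derived from a cutaneous vascular tumor of a tamoxifen-treated Tsc1 f/f;Scl-Cre mouse. Endothelial Tsc1, the brake on the growth kinase complex mTORC1, was therefore deleted in the control cells as well as in every KO. The labels name the strain C57BL/6 and the tissue lymphatic endothelial cells, and they call the control genotype wildtype, which refers to the autophagy genes. RNA-sequencing was done on 12 libraries in 4 groups of 3, namely control cells with an sgRNA against EGFP, and cells with a KO of Fip200, Atg5 or Atg7 made with the lentiCRISPR v2 vector and selected with puromycin. FIP200 (gene Rb1cc1) belongs to the kinase complex that starts autophagosome formation, whereas ATG5 and ATG7 act in the conjugation of LC3 to the autophagosome membrane. The Fip200 KO cells of the study were 2 clones, its methods list 2 sgRNAs for Fip200 and 1 each for Atg5 and Atg7, and which clone a library came from is not given in the sources used here. All values come from 1 tumor line. The study describes the RNA samples as independent replicates and its experiments in general as biologically repeated, without saying which cultures these libraries came from, so the p-values here measure the spread between these samples, which may in part be technical.

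Chemokines are small secreted proteins that draw leukocytes along a gradient by binding G protein-coupled receptors. Endothelial cells make several of them after exposure to TNF, interleukin-1 or interferon, largely through NF-kB and the interferon regulatory factors. A pair of them, CX3CL1 and CXCL16, are made as membrane proteins with a mucin stalk, and the metalloproteinases ADAM10 and ADAM17 release them. CCL2 and CCL7 attract monocytes through CCR2, CXCL1 attracts neutrophils through CXCR2, CXCL10 attracts T cells through CXCR3, CCL5 attracts T cells and monocytes, and CXCL12 acts through CXCR4 and ACKR3.

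The amount of RNA is given as RPKM, which scales the reads of a gene to its length and to the total of the library and allows levels of different genes to be compared. The reads behind it could be recovered from the tables and summed to between 17266926 and 23629730 per library, a range of 1.37-fold. Fold changes are differences of log2(RPKM + 0.5), which understates the change of genes with a low RPKM. Limma tested the genes that reached an RPKM of 0.5 in 3 or more libraries of a comparison. Calls required an adjusted p over all genes of 0.1 or less together with a log2 fold change (given with its standard error, SE) of 1 or more in either direction. The 8 chemokines passed this filter in every comparison. The labels also carry a prefix in the library names. FY marks control 1 and the Fip200 KO libraries, JG marks control 2, control 3, Atg5 KO 1 and Atg5 KO 2, and Yang marks Atg5 KO 3 and the Atg7 KO libraries. No control library has the prefix Yang, so the Atg7 KO and that prefix can be told apart only through Atg5 KO 3. Atg5 KO 1 and Atg5 KO 2 differed from each other by more than sampling noise but less than any other pair within a group, with a chi-square per degree of freedom of 8.19 over the reads of genes with at least 10 in the pair, against 48.5 to 297 for the others. In these bulk libraries, fewer cells that make a chemokine and less of its RNA per cell cannot be told apart.

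The targeted genes were not all lower at the RNA level. Atg7 was called lower in Atg7 KO cells (log2 fold change -1.97, limma adjusted p = 0.0216). It was also below control in each Atg5 KO library (-0.95, limma adjusted p = 0.0083), short of the fold threshold. Rb1cc1 in Fip200 KO cells and Atg5 in Atg5 KO cells were not (-0.74 and 0.00, limma adjusted p = 0.404 and 0.994), and a small deletion or insertion need not lower the RNA. All 10 endothelial markers measured, among them Pecam1 and Cdh5, had an RPKM of 0.5 or more in every library apart from Flt1 in Fip200 KO 1 (0.145), with a summed RPKM of 1220 to 3350 per library. Of the lymphatic markers, Lyve1 had an RPKM of 60.6 to 393 and Pdpn of 51.5 to 336, but Prox1, the transcription factor that specifies lymphatic endothelium, had only 0.0366 to 5.79. Of the macrophage and leukocyte markers, Ptprc, Adgre1, Csf1r and Laptm5 were below 0.5 in all 12 libraries, and so was Col1a1 of the fibroblast list. The other macrophage and leukocyte markers measured were higher, with Cd68 from 6.95 to 263, Cd14 from 4.06 to 73.0 and Lyz2 from 0.139 to 26.4.

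Control 2 and control 3 stood apart in part of the fibroblast list. Dcn, which encodes the matrix proteoglycan decorin, had an RPKM of 56.9 in control 2 and 15.2 in control 3 but 0.125 in control 1 and at most 0.989 in the KO libraries. Pdgfra was 9.02, 2.26 and 0.113 in the same control libraries and at most 0.320 in the KO libraries. Pdgfrb reached 4.19 in control 2 and at most 0.261 elsewhere. The summed RPKM of the whole fibroblast list did not separate the groups in this way, with 18.1 to 81.5 in control, 1.17 to 289 in Fip200 KO, 108 to 210 in Atg5 KO and 72.5 to 348 in Atg7 KO cells, since Thy1 made up most of it in the KO libraries other than Fip200 KO 3. These 3 genes were singled out after their values were seen.

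The 8 chemokines spanned a wide range of expression in control cells. Ccl2 had the highest mean RPKM, 833 ± 279 (SD, n = 3), higher than 99.8% of the genes listed. Cxcl1 (282 ± 297) and Ccl7 (185 ± 255) came next, followed by Ccl5 (18.3 ± 13.8), Cxcl10 (17.3 ± 16.0) and Cx3cl1 (14.2 ± 6.37). Cxcl16 (1.18 ± 0.514) and Cxcl12 (0.608 ± 0.498) were barely expressed. In this order the ranges of neighbouring genes overlapped everywhere except between Cx3cl1 and Cxcl16. Ccl2 was also the most abundant of the 8 in each KO, where Fip200 KO cells had a mean RPKM of 383 ± 214, Atg5 KO cells 447 ± 94.8 and Atg7 KO cells 453 ± 155. Ccl5 had place 4 in this order in control and place 2 in Atg7 KO cells, and Cxcl12 moved from place 8 to place 6 in both Fip200 KO and Atg7 KO cells.

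**Figure D1:**
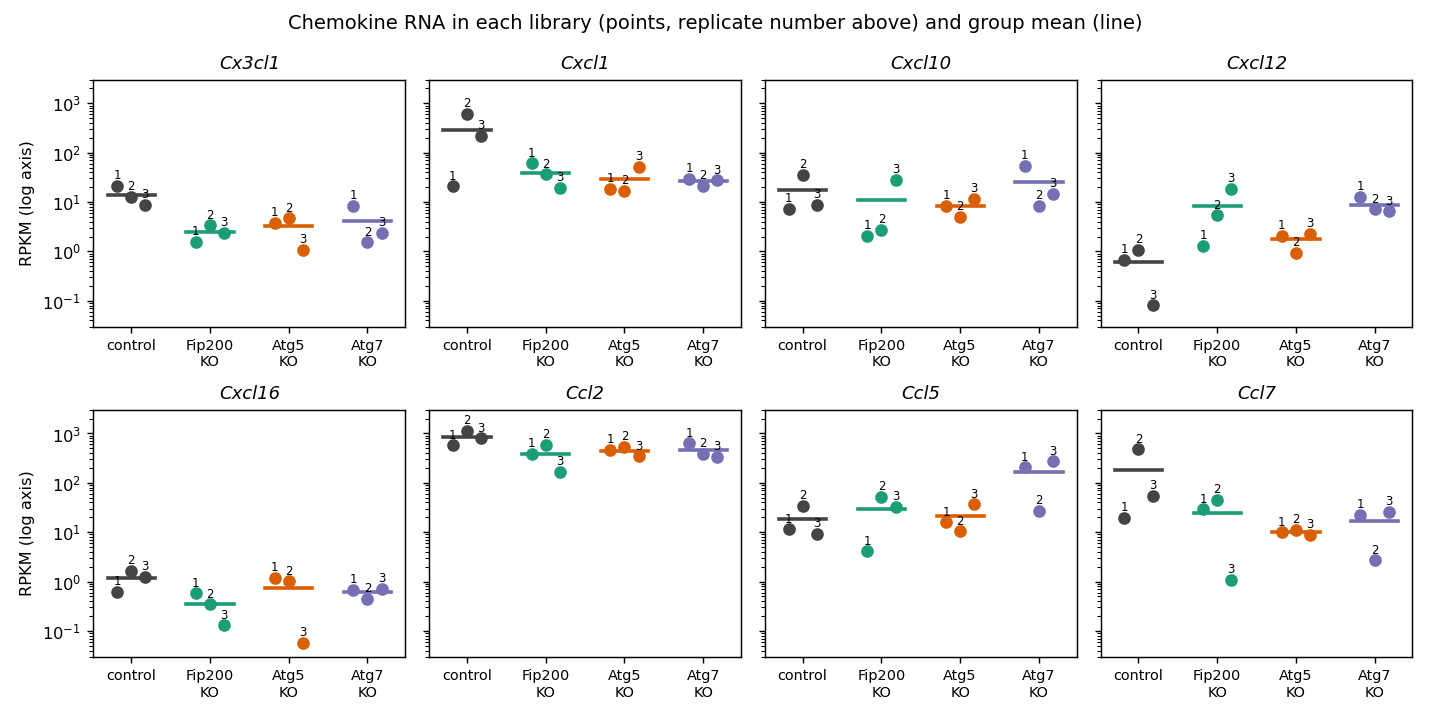
RPKM of each chemokine (log axis) in the 12 libraries, with points for single libraries, the replicate number above each and a line at the group mean. Cx3cl1 lies lower in the 9 KO libraries, from 1.07 to 8.49, than in the control libraries, from 8.74 to 21.2, while the 3 control libraries of Cxcl1 and Ccl7 lie far apart.

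The sequence before the start of transcription is shown for the 4 chemokines that the RefSeq table holds, because 2 of them (Cxcl1 and Cxcl10) have letters of NF-kB or interferon type there and the others, Cx3cl1 and Cxcl12, do not. Each line gives the 250 bases upstream of the RefSeq start, 5' to 3' on the strand of the gene in GRCm38.p6. The windows are chr8:94771930-94772179 (plus strand) for Cx3cl1, chr5:90890995-90891244 (plus) for Cxcl1, chr5:92348890-92349139 (minus) for Cxcl10 and chr6:117168285-117168534 (plus) for Cxcl12. Capitals mark matches to the letters GGNNTTTCC (NF-kB), TTCNNNGAA (GAS, an interferon-responsive element), GAAANNGAA (ISRE, the interferon response element) or TGANTCA (AP-1), searched on both strands.
Cx3cl1: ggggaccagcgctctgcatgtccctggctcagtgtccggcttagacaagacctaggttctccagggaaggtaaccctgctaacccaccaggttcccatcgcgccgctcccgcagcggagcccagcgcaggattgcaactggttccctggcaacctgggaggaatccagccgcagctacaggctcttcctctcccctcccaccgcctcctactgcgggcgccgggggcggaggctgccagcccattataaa
Cxcl1: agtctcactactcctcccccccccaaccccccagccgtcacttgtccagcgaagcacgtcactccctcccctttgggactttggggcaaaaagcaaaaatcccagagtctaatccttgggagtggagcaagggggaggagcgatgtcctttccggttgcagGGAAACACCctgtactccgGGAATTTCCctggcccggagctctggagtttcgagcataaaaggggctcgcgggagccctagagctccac
Cxcl10: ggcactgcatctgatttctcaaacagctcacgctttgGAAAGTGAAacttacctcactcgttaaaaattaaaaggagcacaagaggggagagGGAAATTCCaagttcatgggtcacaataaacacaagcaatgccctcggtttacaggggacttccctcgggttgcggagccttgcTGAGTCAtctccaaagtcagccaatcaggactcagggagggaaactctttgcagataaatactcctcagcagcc
Cxcl12: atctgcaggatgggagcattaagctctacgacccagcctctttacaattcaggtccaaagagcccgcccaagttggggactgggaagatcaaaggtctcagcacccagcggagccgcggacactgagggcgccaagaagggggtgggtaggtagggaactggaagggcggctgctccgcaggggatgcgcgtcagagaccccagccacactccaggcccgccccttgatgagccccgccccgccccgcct

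The Cxcl1 window holds 2 matches to the NF-kB letters, which begin 89 and 70 bases upstream of the start. The Cxcl10 window holds 1 ISRE match at 213, 1 NF-kB match at 158 and 1 AP-1 match at 74 bases upstream, and no match overlaps another. The Cx3cl1 and Cxcl12 windows have none of the 4. Of 32851 windows of the same length from 27025 genes, 4.93% hold the NF-kB letters, 7.02% the GAS, 7.13% the ISRE and 6.75% the AP-1 letters. A match is a description of these letters and not a test of binding. The letters TATTTAT, an AU-rich element of short-lived RNAs, occur 6 times in the longest coding transcript of Cxcl1 in GENCODE M21, where 0.407% of 13757 genes have as many. They occur once each in Cx3cl1 and Cxcl12 (33.8% of genes have at least 1) and not in the transcripts of the other 5.

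Cx3cl1, the membrane-bound chemokine that both tethers and attracts cells with the receptor CX3CR1, was the only one of the 8 to be called by limma in all 3 KO comparisons. The supplement of the study, by its own test of read counts, lists both Cx3cl1 and Cxcl1 as lower in each KO. Its RPKM was 21.2, 12.6 and 8.74 in control 1, 2 and 3. It was 1.54, 3.38 and 2.35 in the Fip200 KO libraries, 3.84, 4.68 and 1.07 in the Atg5 KO libraries, and 8.49, 1.53 and 2.34 in the Atg7 KO libraries. All 9 KO libraries were below the lowest control library, although Atg7 KO 1 was close to it. In Fip200 KO cells the log2 fold change was -2.29 (SE 0.386, limma adjusted p = 0.0639). For the Atg5 KO it was -2.07 (SE 0.503, limma adjusted p = 0.0249), and for the Atg7 KO -1.89 (SE 0.572, limma adjusted p = 0.0679). The 3 comparisons share their control libraries. In the fit of all 12 libraries, the mean of the KO groups was lower by a log2 of -2.08 (0.478, limma adjusted p = 0.0172).

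The fall of Cx3cl1 had the same direction whichever library was left out, but in Fip200 KO and Atg7 KO cells the call was mostly lost. In Atg5 KO cells the call remained with each library left out in turn. In Fip200 KO cells it remained only without Fip200 KO 3, and the adjusted p from limma was 0.135, 0.293 and 0.265 without control 1, 2 and 3 and 0.109 and 0.115 without Fip200 KO 1 and 2. In Atg7 KO cells it remained only without Atg7 KO 1, and the adjusted p was 0.152, 0.158 and 0.130 without control 1, 2 and 3 and 0.108 and 0.161 without Atg7 KO 2 and 3. With the prefix added to the fit no call of Cx3cl1 remained. The change was then -2.94 for the Fip200 KO, the value within FY (limma adjusted p = 0.274), -1.21 for the Atg5 KO, the value within JG (0.291), 0.03 for the Atg7 KO (0.996) and -1.37 for the mean of the KO groups (0.201). Within Yang the Atg7 KO libraries were higher than Atg5 KO 3 by 1.24. Cx3cl1 lies on chromosome 8, between Ccl22 and Ccl17 in GRCm38.p6. The median log2 difference from control of 545 other genes of that chromosome was -0.36, -0.37 and -0.37 in Fip200, Atg5 and Atg7 KO cells, against 0.02, 0.07 and 0.00 for 9626 genes of all chromosomes, and the part of this in the change of Cx3cl1 was not tested.

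Cxcl12, the ligand of CXCR4 that retains stem cells and lymphocytes in their niches, moved the other way. Its RPKM was 0.673, 1.07 and 0.0807 in the control libraries, the last from 16 reads. It was 1.30, 5.37 and 18.2 in Fip200 KO and 12.7, 7.07 and 6.45 in Atg7 KO libraries, and all 6 of these were above every control library. The Atg5 KO libraries had 2.03, 0.948 and 2.29, of which Atg5 KO 2 was below control 2. Cxcl12 was called higher in Atg7 KO cells (log2 fold change 3.11, SE 0.419, limma adjusted p = 0.0109) and in Atg5 KO cells (1.09, 0.423, adjusted p = 0.0934). The control libraries alone did not meet the filter. Cxcl12 was thus tested only through KO libraries, where it was high, so its calls and its place in the counts are a description. In Fip200 KO cells the libraries spread over a 14.0-fold range, and the change of 2.51 (0.819, limma adjusted p = 0.209) did not pass, although it did in 1 fit of all 12 libraries and with quality weights (limma adjusted p = 0.0679 and 0.0208). The mean of the KO groups was higher by 2.24 (0.569, limma adjusted p = 0.0250).

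The rise of Cxcl12 in Atg7 KO cells was called with each library left out, with a log2 fold change between 2.71 and 3.42. It entered these fits too only through the KO libraries. With the prefix added to the fit it was 2.67 (limma adjusted p = 0.592). The call in Atg5 KO cells was marginal. It was lost without control 1 (adjusted p = 0.120), control 3 (0.211, log2 fold change 0.68), Atg5 KO 1 (0.224) or Atg5 KO 3 (0.216), and in 11 of 15 alternatives in all. The call in the mean of the KO groups was lost without control 3 (1.83, limma adjusted p = 0.130) and with the prefix added (limma adjusted p = 0.213). Within FY the Fip200 KO libraries were higher than control by a log2 of 2.31, and within JG the Atg5 KO libraries by 1.00, neither of them called in the fit with the prefix (limma adjusted p = 0.708 and 0.567). Cxcl12 lies on chromosome 6, where 470 other genes had a median log2 difference from control of 0.35, 0.19 and 0.06 in Fip200, Atg5 and Atg7 KO cells. The fibroblast markers moved both ways beside it. Col1a2 was at most 0.0202 in the control libraries and between 0.756 and 1.54 in the Atg7 KO libraries, through which alone it passed the filter. Atg5 KO 3, which shares the prefix Yang with them, had 1.08. Thy1 rose in Atg7 KO cells (4.32, limma adjusted p = 0.0207). Dcn was called lower in the mean of the KO groups (-3.25, limma adjusted p = 0.0432), and the part of these markers in the Cxcl12 result was not tested.

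**Figure D2:**
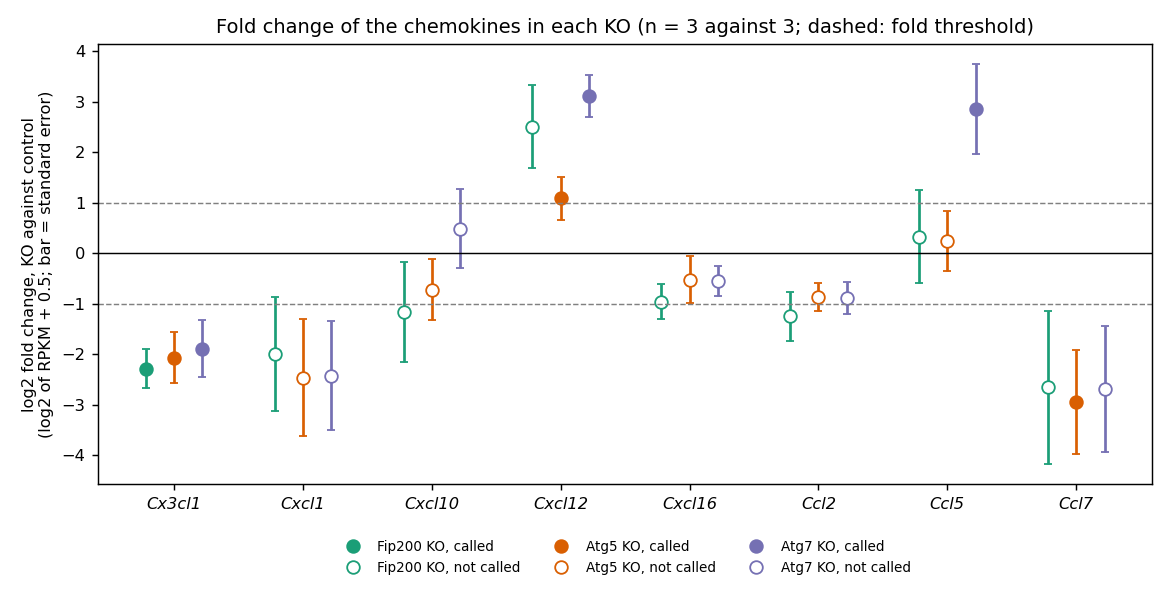
Log2 fold change of each chemokine in each KO against control (n = 3 against 3), on the scale of log2(RPKM + 0.5), with bars for the standard error, filled points for calls and dashed lines at the fold threshold. The points of Cx3cl1 lie between -2.29 and -1.89, whereas those of Cxcl12 lie between 1.09 and 3.11.

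Ccl5, a chemokine of T cells and monocytes that interferon and NF-kB both induce, was raised in Atg7 KO cells. Its RPKM was 11.5, 34.3 and 9.24 in control and 207, 27.1 and 272 in Atg7 KO libraries. Atg7 KO 1 and 3 were far above all others, and Atg7 KO 2 lay within the control range. The log2 fold change was 2.86 (SE 0.892, limma adjusted p = 0.0730). The call was lost without control 1 (adjusted p = 0.149), control 2 (0.104), control 3 (0.209), Atg7 KO 1 (0.200) or Atg7 KO 3 (0.174), and remained without Atg7 KO 2. With the prefix added to the fit the change was 1.19 (limma adjusted p = 0.882).

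In the other KO cells Ccl5 had no consistent direction. Its RPKM was 4.09, 52.6 and 32.9 in Fip200 KO and 15.9, 10.4 and 36.6 in Atg5 KO libraries, and both groups overlapped control. The log2 fold changes were 0.33 (0.923, limma adjusted p = 0.885) and 0.24 (0.593, adjusted p = 0.782). Both turned negative when single libraries were left out. Irf7, the interferon regulatory factor that amplifies the type I response, was the 1 of 10 interferon regulators called in Atg7 KO cells, where 3.29% of all tested genes were called higher and 6.81% lower. Control libraries had 54.0, 48.4 and 20.9 RPKM, Atg7 KO libraries 141, 72.6 and 112, with no overlap (log2 fold change 1.45, limma adjusted p = 0.0541). In the Fip200 KO libraries Irf7 had 5.66, 15.4 and 17.1, all below control (-1.68, limma adjusted p = 0.186, not called). The Atg5 KO libraries had 41.5, 33.7 and 86.3 (0.38, limma adjusted p = 0.552, not called). Of these, Atg5 KO 3 was above all control libraries and shares the prefix Yang with the Atg7 KO libraries. The part of the prefix in the Irf7 result was not tested. Irf1, Irf3, Irf9, Stat2 and the interferon receptor genes were not called in any KO.

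Cxcl10, the interferon-induced ligand of CXCR3, was not called in any comparison. The control libraries had an RPKM of 7.29, 35.7 and 8.88. Fip200 KO libraries had 2.06, 2.71 and 28.4, Atg5 KO libraries 8.29, 5.03 and 11.7, and Atg7 KO libraries 53.4, 8.42 and 14.7. Each group overlapped control, and in each of control, Fip200 KO and Atg7 KO a single library stood far above the others. The log2 fold changes were -1.16 (standard error 0.994), -0.72 (0.598) and 0.49 (0.785), with adjusted p of 0.585, 0.388 and 0.693 from limma. The 95% intervals ran from -3.49 to 1.17, from -2.14 to 0.70 and from -1.36 to 2.33, and changes within these ranges are not excluded. The Atg7 KO value turned to -0.25 without Atg7 KO 1.

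Cxcl1, the neutrophil attractant, varied 29.1-fold among the control libraries. Its RPKM was 20.8 in control 1, 604 in control 2 and 219 in control 3. The KO libraries were all between 16.7 and 60.9, where Fip200 KO libraries had 60.9, 36.4 and 19.3, Atg5 KO libraries 18.2, 16.7 and 51.1, and Atg7 KO libraries 29.3, 21.5 and 27.3. Control 1 therefore lay within the KO range, and control 2 and control 3 above all of it. The log2 fold changes were -1.99 (SE 1.13, limma adjusted p = 0.419), -2.47 (1.16, adjusted p = 0.146) and -2.43 (1.08, adjusted p = 0.160), none of them called in these fits. The mean of the KO groups was called lower, with -2.30 (0.781, limma adjusted p = 0.0631).

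The call of Cxcl1 in the mean of the KO groups depended on single libraries. Without control 2 the change was -1.25 (limma adjusted p = 0.322), without control 3 it was -1.98 (0.222) and without Atg5 KO 1 it was -2.22 (0.101). Without control 1 it was -3.66, and Cxcl1 was then called lower also in each of Atg5 KO and Atg7 KO cells (-3.84 and -3.79, limma adjusted p = 0.0114 and 0.0163). The same was so with the prefix added to the fit (-4.35 and -5.32, limma adjusted p = 0.00604 and 0.0536) and with quality weights (-3.18 and -2.58, limma adjusted p = 0.00379 and 0.0452). The value of -4.35 is that within JG, which holds control 2 and 3, whereas within FY, which holds control 1, the Fip200 KO libraries were higher by 0.74 (limma adjusted p = 0.821). The 2 control libraries with high Cxcl1 were those with high Dcn and Pdgfra, and their part in the result was not tested.

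Ccl7, a monocyte attractant encoded next to Ccl2 on chromosome 11, had the widest spread of the 8. Its RPKM was 19.6, 479 and 55.2 in control, and control 2 alone held 86.5% of that group's sum. Fip200 KO libraries had 29.0, 44.9 and 1.08, Atg5 KO libraries 10.0, 11.3 and 8.86, and Atg7 KO libraries 22.8, 2.68 and 26.1. The Atg5 KO libraries agreed within a 1.28-fold range and were all below control, whereas the other KO groups overlapped it. Ccl7 was called lower in Atg5 KO cells (log2 fold change -2.95, SE 1.03, limma adjusted p = 0.0706). In Fip200 KO and Atg7 KO cells the changes were -2.66 (1.52, adjusted p = 0.422) and -2.70 (1.25, adjusted p = 0.177), and in the mean of the KO groups -2.77 (1.11, limma adjusted p = 0.101). With single libraries left out these ran from -3.67 to -1.15, from -3.71 to -1.42 and from -3.78 to -1.49. In the mean of the KO groups Ccl7 was called in 8 of 20 alternatives.

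Without control 2 the Atg5 KO change of Ccl7 was -1.67 and still called (limma adjusted p = 0.0411). The call was lost without control 3 (-3.22, adjusted p = 0.126), Atg5 KO 1 (-2.95, 0.152), Atg5 KO 2 (-3.03, 0.136) or Atg5 KO 3 (-2.87, 0.149). It was also lost with the prefix added to the fit (-3.87, the value within JG, limma adjusted p = 0.221) and in 1 fit of all 12 libraries (-2.95, 0.172). Control 2 and 3, which had most Ccl7, also had most Dcn and Pdgfra, and the part of this in the Ccl7 result was not tested.

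**Figure D3:**
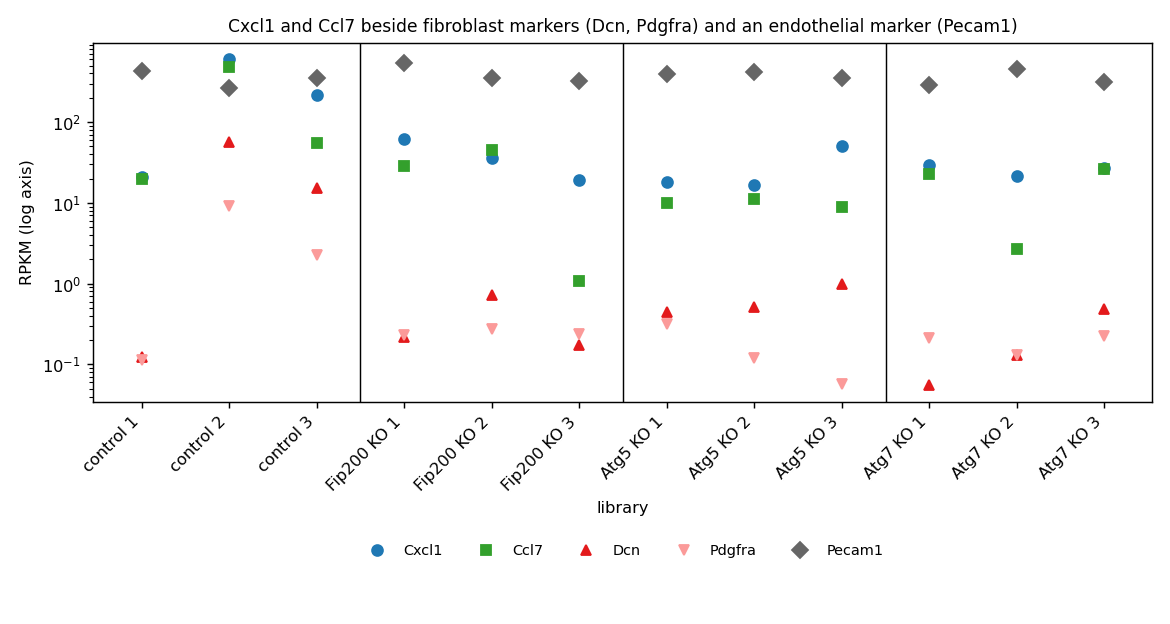
RPKM (log axis) of Cxcl1, Ccl7, the fibroblast markers Dcn and Pdgfra and the endothelial marker Pecam1 in each of the 12 libraries. Dcn and Pdgfra are highest in control 2 (56.9 and 9.02) and next in control 3, as are Cxcl1 (604) and Ccl7 (479), while Pecam1 is lowest in control 2, at 265.

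Ccl2, the most abundant of the 8, had lower values in most KO libraries, with less spread than Cxcl1 or Ccl7. The control libraries had an RPKM of 575, 1130 and 795. Fip200 KO libraries had 390, 594 and 165, Atg5 KO libraries 460, 534 and 346, and Atg7 KO libraries 630, 389 and 340. Fip200 KO 2 and Atg7 KO 1 lay just above control 1, and the other 7 KO libraries lay below all control libraries. The log2 fold changes were -1.25 (SE 0.490, limma adjusted p = 0.279), -0.87 (0.272, adjusted p = 0.0528) and -0.88 (0.319, adjusted p = 0.105). The Atg5 KO value met the threshold on p but not on the fold, and the same held for the mean of the KO groups, where Ccl2 stood at 0.501 of control (limma adjusted p = 0.0704). That comparison was so near the fold threshold that Ccl2 was called in 6 of 20 alternatives. It was also called lower in Atg5 KO cells without control 1 (-1.11, limma adjusted p = 0.0241) or Atg5 KO 2 (-1.01, 0.0733), and in Atg7 KO cells without control 1 (-1.12, 0.0801) or Atg7 KO 1 (-1.14, 0.0957). Within FY and JG the differences were -0.77 and -0.93.

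Cxcl16, the membrane-bound ligand of CXCR6 and a scavenger receptor, was near the limit of detection. The control libraries had an RPKM of 0.625, 1.64 and 1.26. Fip200 KO libraries had 0.577, 0.345 and 0.130, Atg5 KO libraries 1.18, 1.01 and 0.0567, and Atg7 KO libraries 0.686, 0.448 and 0.701. The lowest value, in Atg5 KO 3, rests on 3 reads and the highest, in control 2, on 95. The Fip200 KO libraries were all below control, but the log2 fold change of -0.96 (SE 0.351, limma adjusted p = 0.251) was not called. In Atg5 KO and Atg7 KO cells it was -0.53 (0.467, adjusted p = 0.416) and -0.55 (0.290, adjusted p = 0.224). With a pseudocount of 0.5, changes at this level are compressed.

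Counted together, 1 of the 8 chemokines was called lower by limma in Fip200 KO cells and 0 higher (4 had an unadjusted p under 0.05), where 1.64% and 0.347% of 11803 tested genes were. In Atg5 KO cells 2 were called lower and 1 higher, against 6.94% and 4.31% of 11833 genes. In Atg7 KO cells 1 was called lower and 2 higher, against 6.81% and 3.29% of 11784 genes. In the mean of the KO groups 2 were called lower and 1 higher, against 5.86% and 2.37% of 12233 genes. Cxcl12 is among those called higher in Atg5 KO cells, in Atg7 KO cells and in the mean of the KO groups. It passed the filter only through KO libraries, so its place in these counts is a description. These counts moved with single libraries. In Fip200 KO cells 0 were called without control 1, 2 or 3 or Fip200 KO 1 or 2, in Atg5 KO cells 1 was called without control 3, Atg5 KO 1 or Atg5 KO 3, in Atg7 KO cells 1 was called without control 2, control 3 or Atg7 KO 3, and in the mean of the KO groups 1 was called without control 3 and 5 without control 1, Fip200 KO 1 or Fip200 KO 2.

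The direction of the fitted changes was mostly downward. Below 0 were the log2 fold changes of 6, 6 and 5 of the 8 in Fip200, Atg5 and Atg7 KO cells, against 48.8%, 45.9% and 50.6% of all tested genes. The median log2 fold change of the 8 was -1.21, -0.79 and -0.72, against 0.02, 0.06 and -0.01 for all genes tested. All 3 KO libraries were below all control libraries for 2 of the 8 in Fip200 KO cells (Cx3cl1 and Cxcl16), where 12.4% of tested genes were, for 3 in Atg5 KO cells (Cx3cl1, Ccl2 and Ccl7), where 22% were, and for 1 in Atg7 KO cells (Cx3cl1), where 20.4% were. They were all above control for 1 in Fip200 KO cells and 1 in Atg7 KO cells, Cxcl12 both times, and for 0 in Atg5 KO cells, where 11.7%, 19.2% and 28.4% of tested genes were. For single genes the exact two-sided permutation test of 3 against 3 libraries cannot go below 0.1, the value that each of these genes had. In Fip200 KO cells Cxcl16 passed the filter only through the control libraries, where it was high. Cxcl12 passed it only through the KO libraries, where it was high. The places of Cxcl16 and Cxcl12 in these counts are therefore a description.

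The KO groups were next compared with each other. None of the 8 was called in any of the 3 comparisons by limma, in which 0, 1 and 2 of them had an unadjusted p under 0.05, and neither was any of 12233 genes (0% in Atg5 KO against Fip200 KO, in Atg7 KO against Fip200 KO and in Atg7 KO against Atg5 KO), although 927, 916 and 562 genes had an unadjusted p under 0.05 from limma. Cxcl12 was higher in Atg7 KO than in Atg5 KO cells by a log2 of 2.03 (95% interval 0.50 to 3.56, limma adjusted p = 0.984). Ccl5 was higher in Atg7 KO cells by 2.53 than in Fip200 KO (0.31 to 4.75, adjusted p = 0.637) and by 2.63 than in Atg5 KO cells (0.40 to 4.85, adjusted p = 1.00). For Cx3cl1 the 3 KO groups differed by at most 0.40, with an interval from -0.88 to 1.69 for Atg7 KO against Fip200 KO. For Cxcl1 and Ccl7 the intervals of Atg5 KO against Fip200 KO ran from -2.58 to 1.62 and from -3.26 to 2.68, so differences of several-fold between KO groups are not excluded. The presence of a call in one KO and its absence in another is thus not shown to be a difference between them for any of the 8.

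**Figure D4:**
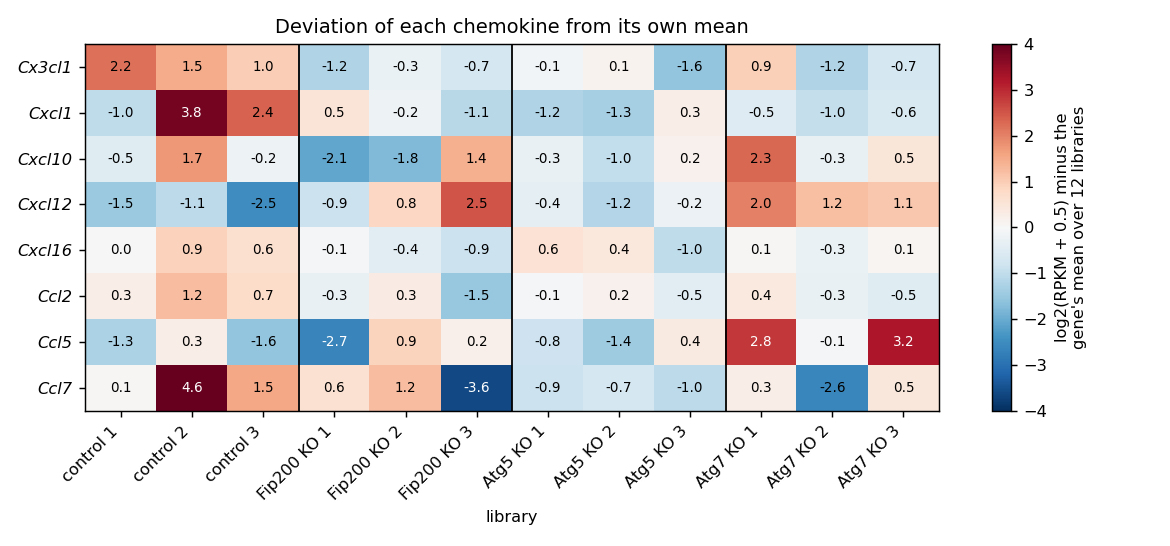
Deviation of log2(RPKM + 0.5) of each chemokine from its own mean over the 12 libraries, by library, with red for higher and blue for lower. Cx3cl1 is above its mean in the 3 control libraries (0.98 to 2.22) and in 2 KO libraries, Cxcl1 and Ccl7 peak in control 2 (3.82 and 4.64), and Ccl5 peaks in Atg7 KO 1 and 3 (2.84 and 3.24).

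The patterns of the 8 genes over the 12 libraries were compared by the root mean square difference of their centred log2 values, as a description. This measure depends on how far a gene swings as well as on which libraries are high. The closest pair by it was Cxcl16 and Ccl2 (0.453), followed by Cx3cl1 and Ccl2 (0.823), and the farthest was Cxcl12 and Ccl7 (3.03). The log2 values of Cxcl16 and Ccl2 vary little. For Cxcl16, whose RPKM ran from 0.0567 to 1.64, the pseudocount compresses the changes. Cxcl1 and Ccl7 differed by 1.21 and the neighbouring genes Ccl2 and Ccl7, of which Ccl7 swings much farther (SD 2.09 against 0.70), by 1.48. Among all genes with a mean RPKM of at least 1, those nearest to Cx3cl1 (SD over libraries 1.18) were Mylip (0.603), Pawr (0.630) and Lrrc8e (0.652). Nearest to Cxcl1 (SD 1.58) were Dnm1 (0.570), Vegfd (0.580) and Itgb7 (0.583), and to Ccl7 (SD 2.09) Bcl3 (0.921), Masp1 (0.937) and Emilin2 (0.938). Nearest to Cxcl10 (SD 1.33) were Ly75 (0.747), the interferon-induced Ifit1 (0.755) and Otud1 (0.789). For Ccl5 (SD 1.74) they were Oas2 (0.871), an interferon-induced enzyme that senses double-stranded RNA, Aif1l (1.01) and the chemokine Ccl4 (1.07). For Cxcl12 (SD 1.52) they were Tgfb2 (0.755), Cav1 (0.828) and Mtmr10 (0.830). Ccl2 varied too little (SD 0.70) for this comparison. Cxcl16 was left out for its mean RPKM of 0.722, below 1, as well as for its compressed SD of 0.59.

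Other chemokine ligands were counted from a list. Of 35 listed, 14 had a row and 8 or 9 passed the filter, and the remaining ligands were not analysed here. None was called in Fip200 KO cells by limma, where 2 had an unadjusted p under 0.05. Over all tested genes 1.64% were lower and 0.347% higher by the same calls there, so 0 of 8 is near the background. In Atg5 KO cells 2 of 8 were called lower and 1 higher, against 6.94% and 4.31% of all tested genes. Of 9 in Atg7 KO cells 1 was called higher, against 3.29%. Pf4, the platelet chemokine CXCL4, was called higher in each of Atg5 KO and Atg7 KO cells (log2 fold changes 1.36 and 1.65, limma adjusted p = 0.0207 and 0.0144). Its RPKM was 0.807, 0.360 and 0.344 in control and between 1.40 and 3.23 in the 6 libraries of these KO groups, and it passed the filter only through the KO libraries, since 1 control library reached 0.5, so its calls and its place in the counts are a description. Ccl25, the thymic and gut chemokine, fell from 5.51, 6.14 and 5.60 in control to 3.21, 2.51 and 1.56 in Atg5 KO libraries (log2 fold change -1.13, limma adjusted p = 0.0147), and Cxcl2, which lies next to Cxcl1 and also acts through CXCR2, from 3.75, 9.02 and 7.85 to 3.20, 3.23 and 2.26 (-1.05, adjusted p = 0.0482).

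Receptors of the 8 chemokines were largely at low levels. Of 16 listed, 10 had a row and 4 were tested, with 0 called in any KO by limma and at most 1 in each KO at an unadjusted p under 0.05. Over all genes tested, 1.64% to 6.94% were called lower and 0.347% to 4.31% higher in the 3 KO comparisons, and a count of 0 among 4 genes is near these shares. Cx3cr1, the receptor of CX3CL1, the atypical receptor Ackr1, and Ccrl2 stayed below 0.5 in every library, and Ccr1, Cxcr3 and Ackr2 reached at most 0.852. Cxcr2 had an RPKM of 0.998 to 1.89 over all libraries. Cxcr4, the signalling receptor of CXCL12, was steady in control (19.0, 20.2 and 19.6) and spread from 3.97 to 100 in Fip200 KO, from 3.90 to 56.7 in Atg5 KO and from 5.75 to 143 in Atg7 KO libraries, with log2 fold changes of -0.27, 0.25 and 0.06. Ackr3, which scavenges CXCL12, was 21.3, 18.7 and 40.9 in control and lower in all KO libraries but Atg7 KO 2 (23.0), with log2 fold changes of -1.76, -2.03 and -2.14 (limma adjusted p = 0.191, 0.169 and 0.111). Gpr182, which binds several chemokines on lymphatic and sinusoidal endothelium, ranged from 0.700 to 20.1, and each KO group overlapped control.

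Of the enzymes that shed or trim chemokines, 5 of 7 were tested and 0 were called in any KO by limma, with 1 in each KO at an unadjusted p under 0.05. A count of 0 among 5 is near the shares of all genes called, at most 6.94% lower and 4.31% higher. The sheddase gene Adam10 had an RPKM of 77.1 to 101 in control and 62.2 to 89.4 in the KO libraries, and Adam17 of 26.7 to 33.4 and 21.2 to 39.4. The log2 fold changes of both lay between -0.31 and 0.19. Mmp14, which trims chemokines at the membrane, reached an adjusted p of 0.0119 in Atg5 KO cells from limma but a log2 fold change of only 0.76. Dpp4 and Mmp9 were below 0.5 in every library.

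Genes of the NF-kB and TNF pathway, which induces most of the 8 chemokines, were counted from a list of 31, of which 28 were tested. Limma called none in Fip200 KO cells, where 3 had an unadjusted p under 0.05 and few genes of any kind were called (1.64% lower and 0.347% higher). It called 6 lower and 1 higher in Atg5 KO cells. In Atg7 KO cells 6 were called lower. The shares of all tested genes were 6.94% (lower) and 4.31% (higher) with the Atg5 KO and 6.81% (lower) with the Atg7 KO. The median log2 fold change of the list was -0.33, -0.32 and -0.34, against 0.02, 0.06 and -0.01 for all genes tested. The subunit genes Nfkb1, Nfkb2, Rela and Relb and the inhibitor gene Nfkbia were not called in any KO. The study drew on this pathway in these same libraries, so the list is not independent evidence of its direction.

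Traf1, an adaptor of TNF receptors that NF-kB induces, reached an RPKM of 15.7, 8.69 and 13.1 in control libraries. It fell to 5.22, 5.27 and 4.10 with the Atg5 KO and to 2.99, 1.82 and 2.81 with the Atg7 KO, with no overlap with control (log2 fold changes -1.25 and -2.08, limma adjusted p = 0.0114 and 0.0103). Il6, an NF-kB target that encodes interleukin-6, had 1.45, 36.0 and 10.4 in control and from 0.653 to 1.62 in the Atg5 KO and Atg7 KO libraries. It passed in Atg5 KO cells (-2.48, limma adjusted p = 0.0925) and did not in Atg7 KO cells (-2.63, limma adjusted p = 0.102), and these KO groups were not called different from each other. Bcl3, a nuclear partner of the NF-kB p50 and p52 subunits, had 5.40, 37.6 and 28.2 in control and was called lower in both (-1.98 and -3.07, limma adjusted p = 0.0697 and 0.0625). Like Cxcl1 and Ccl7, Il6 and Bcl3 were lower in control 1 than in control 2 and 3.

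At the other end of the called genes of this list, Nfkbie, which encodes an inhibitor of NF-kB, rose in Atg5 KO cells from 0.880, 0.562 and 0.773 to 1.74, 2.25 and 3.47 (log2 fold change 1.24, limma adjusted p = 0.0145). Rel, which encodes the c-Rel subunit, was called lower in Atg7 KO cells (-1.14, adjusted p = 0.0913), and Tnfrsf1b, which encodes TNF receptor 2, in Atg5 KO cells (-1.12, limma adjusted p = 0.0692). Tnf itself was at most 0.638 in any library.

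Marker genes also differed between the groups compared. Cd68 and Cd14, which macrophages express most but endothelial cells can also express, were called lower in Atg5 KO (log2 fold changes -2.26 and -1.79, limma adjusted p = 0.0064 and 0.0289) and in Atg7 KO cells (-1.70 and -2.81, adjusted p = 0.0798 and 0.0216). Lyz2 of the same list was called lower in the mean of the KO groups (-2.27, limma adjusted p = 0.0671) but in no single KO. The summed RPKM of the 7 macrophage and leukocyte markers measured was 108 to 134 in control, 23.4 to 286 in Fip200 KO, 26.1 to 30.4 in Atg5 KO and 24.0 to 31.7 in Atg7 KO libraries, while 4 of the 7, Ptprc among them, were below 0.5 in all. Thy1 was called higher in Atg5 KO and Atg7 KO cells (4.02 and 4.32, limma adjusted p = 0.00854 and 0.0207). Lyve1 was called higher in the same KO groups (1.25 and 1.11, adjusted p = 0.0480 and 0.0947). Among endothelial markers, Cdh5, Kdr, Egfl7 and Esam were called higher in Atg5 KO cells, by 1.14 to 1.35, and Flt1 was called lower in Fip200 KO (-3.66, adjusted p = 0.0995) and Atg7 KO cells (-2.99, limma adjusted p = 0.0196). The summed endothelial markers were lowest in control 2, at 1220, and the part of these marker changes in the chemokine results was not tested.

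**Figure D5:**
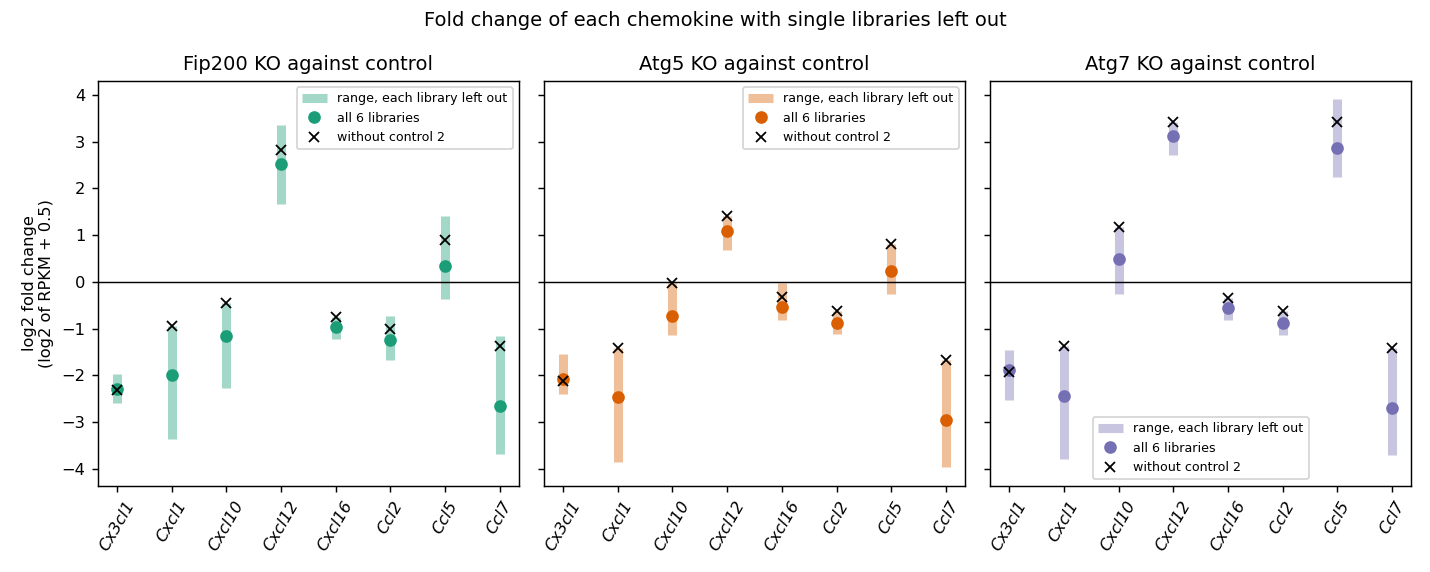
Log2 fold change of each chemokine in each KO against control with all 6 libraries (points), its range when each library is left out in turn (bars) and its value without control 2 (crosses). The bars of Cx3cl1 stay below 0, from -2.58 to -1.45, while those of Ccl5 cross 0 in Fip200 KO and Atg5 KO, and the crosses of Cxcl1 and Ccl7 lie nearer to 0 than the points.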

How the data were processed

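Total RNA of cultured 562 cells was made into directional libraries (NEBNext Ultra II) and sequenced. Per the paper's methods and the labels, the authors trimmed adapters, aligned the reads with TopHat2, counted them per known transcript with Bioconductor packages and compared groups with edgeR. The genome build, annotation and versions are not given in the sources used here. The authors deposited 3 tables, 1 per KO, with an RPKM value per gene and library, and the same control values stand in all 3. The authors deposited group means as a signal, the reads divided by size factors and averaged, which here only helped to set the scale when whole reads were recovered (for 99.98% of genes from the ratios between libraries, with a relative tolerance of 1e-10). Their fold changes, log2 fold changes and p-values in the same tables were not used. The reads served for depth, for the read numbers quoted and to look for duplicate libraries, of which none was found. The unit was read from the values.

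The 6 libraries of each KO and control were fitted with limma 3.58.1 (R 4.3.3) on log2(RPKM + 0.5) with a trend. The mean of the KO groups and the comparisons between KO groups came from 1 fit of 12 libraries. The Benjamini-Hochberg adjustment ran over all tested genes. The test was checked on simulated data. Promoter letters and marker sums used Python 3.11.15. The members and the gene lists were chosen with earlier results of these data known. Named genes are the 8 members, the targeted genes, the list genes called in a KO (the 3 lowest and 3 highest where over 6 were called), receptors with a mean RPKM of at least 1, and the 3 genes nearest in pattern to members with a mean RPKM of at least 1 and an SD of at least 0.75. Other list genes named with their levels fall outside this rule and were chosen after their values were seen. Replicate numbers did not pair libraries, since same-numbered libraries had correlations of -0.22 to 0.08 with control. Alternatives were 2 pseudocounts, 2 filters, another scaling, quality weights, the library-name prefix, a replicate block, a 12-library fit, a stricter adjusted p and each library left out.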

Additional observations from a re-analysis of the deposited data

How the results depend on the processing

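The number of the 8 chemokines called was 1 in Fip200 KO, 3 in Atg5 KO, 3 in Atg7 KO, 3 in the mean of the KO groups and 0 between KO groups. With single libraries left out it ran from 0 to 1, from 1 to 4, from 1 to 3, from 1 to 5 and from 0 to 1. In Fip200 KO cells it was 2 with quality weights or 1 fit of 12 libraries and 0 with the prefix as a term, the replicate block or an adjusted p of at most 0.05. In Atg5 KO cells it was 1 with the prefix, the fit of 12 libraries or the stricter p, and in Atg7 KO cells 1 with the prefix or the stricter p. With the prefix, the call in each of these and in the mean of the KO groups was Cxcl1 (adjusted p = 0.00604, 0.0536 and 0.0169 from limma), and those of Cx3cl1, Cxcl12, Ccl7 and Ccl5 were lost. In the mean of the KO groups it was 5 with median-of-ratios scaling or quality weights and 1 with the prefix, and between KO groups 2 with quality weights. The replicate block also took the call of Cxcl12 in Atg5 KO (adjusted p = 0.152 from limma) and of Ccl5 in Atg7 KO (0.149), and of Cx3cl1 in Fip200 KO (0.114). Replicate numbers did not pair the libraries, and the cause of these changes was not tested.

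Some signs turned. With the prefix as a term, log2 fold changes were 0.03 for Cx3cl1, -0.74 for Cxcl10 and 0.71 for Cxcl16 in Atg7 KO, 0.74 for Cxcl1 in Fip200 KO and -0.46 for Ccl5 in Atg5 KO. With single libraries left out, Cxcl10 ran from -0.25 to 1.18 in Atg7 KO and from -0.88 to 0.23 in the mean of the KO groups, and Ccl5 from -0.37 to 1.40 in Fip200 KO and from -0.25 to 0.80 in Atg5 KO, with -0.02 without control 3, -0.37 without Fip200 KO 2 and -0.03 without Fip200 KO 3, and -0.12 without control 3 and -0.25 without Atg5 KO 3. Across all genes, the Fip200 KO count of 234 was 0 without control 2 (1103 genes at an unadjusted p under 0.05) or control 3 (913), 1141 with quality weights, 608 in 1 fit, 598 without Fip200 KO 3, 146 with no filter, 93 with the block, 89 without control 1, 143 without Fip200 KO 1, 41 without Fip200 KO 2 and 47 with the prefix, which gave 663 in Atg5 KO and 38 in Atg7 KO against 1331 and 1191. The Atg7 KO count was 730, 576 and 768 without control 2, control 3 and Atg7 KO 1, and that of 1007 in the mean of the KO groups was 550 and 605 without control 2 and control 3 and 416 with the prefix. Few reads limit Cxcl16 (3 to 95 reads), Cxcl12 in control 3 (16) and Ccl7 in Fip200 KO 3 (19).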
